A study of Mus musculus with 6 samples.

Results

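The collagen genes outside cartilage were compared between wild-type (WT) and Dlx2-overexpressing mouse maxillary prominences at E12.5. The members were all protein-coding rows whose symbol had the form Col, a number, a and a number, without the 7 cartilage collagens Col2a1, Col9a1, Col9a2, Col9a3, Col10a1, Col11a1 and Col11a2. This left 37 of the 44 collagen genes, among 53801 gene rows. They were described by class, with 8 fibrillar, 9 basement membrane, 6 FACIT (fibril-associated collagens with interrupted helices) and 4 transmembrane collagens, and 10 collagens of beaded filaments and other networks that belong to none of those classes.

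Bulk RNA was sequenced from 3 WT samples and 3 samples of the genotype Wnt1cre; Rosa26Dlx2/-, called Dlx2OE here, all C57BL/6 embryos (C57BL/6J in the protocol). In Dlx2OE embryos, heterozygous for a CAG-LSL-Dlx2-3xFlag insert at Rosa26, Cre driven by Wnt1 removes a stop cassette, so that Dlx2 is overexpressed in neural crest cells and their descendants but not in the epithelium, endothelium or blood of the same tissue. The comparison addressed which transcripts of the maxillary prominence change with this overexpression. The labels and the study's methods differ on how many littermates gave the RNA. Reads of Xist and of Y-linked genes were present together in every library, with the values given below. RNA of several embryos, of both sexes, may therefore be mixed in a sample. Whether the spread between samples is between animals, between mixtures of animals or partly technical cannot be told apart.

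Collagen chains wind around each other into a helix, which requires glycine in every Gly-X-Y unit. Fibrillar collagens build the tensile fibrils of mesenchyme, tendon, skin and bone, FACIT collagens sit on the surface of those fibrils, and type IV collagen forms the sheet under epithelia and around vessels. Transmembrane collagens are held in the cell membrane, and type VI collagen forms beaded filaments close to cells. In the maxillary prominence, neural crest-derived mesenchyme makes most of the fibrillar matrix, and the overlying epithelium contributes to the basement membrane.

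The classes differ in how long the Gly-X-Y stretch runs without a break, and the start of the longest run is shown for the member of each class with the highest level per kilobase of merged exon. Each stretch is 60 bases of coding sequence of the longest coding transcript in GENCODE M21 (GRCm38), read 5′ to 3′, with the glycine codons of the repeat in capitals.
Col3a1: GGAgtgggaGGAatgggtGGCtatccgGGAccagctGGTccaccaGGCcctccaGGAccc
Col4a1: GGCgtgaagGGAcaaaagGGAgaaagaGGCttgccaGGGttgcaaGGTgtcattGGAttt
Col12a1: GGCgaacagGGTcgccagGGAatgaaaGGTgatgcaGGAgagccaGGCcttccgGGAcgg
Col23a1: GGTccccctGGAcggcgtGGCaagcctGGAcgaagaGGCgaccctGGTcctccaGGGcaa
Col6a1: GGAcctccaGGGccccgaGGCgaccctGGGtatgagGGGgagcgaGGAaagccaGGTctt
The stretches start at codon 164 in Col3a1, codon 43 in Col4a1, codon 2805 in Col12a1, codon 110 in Col23a1 and codon 256 in Col6a1. The next sequence shows how such a run ends in Col4a1, from codon 151 to 170, where the last glycine codon in capitals is followed by a codon other than glycine in the glycine position.
Col4a1, end of the run: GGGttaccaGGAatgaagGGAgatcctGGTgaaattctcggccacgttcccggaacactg

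The longest unbroken run was 344 Gly-X-Y units in Col3a1, 338 in Col1a1 and 339 in Col1a2. The fibrillar class thus had runs of 216 to 344 units, and its shortest were 216 in Col24a1 and 217 in Col27a1. No other class reached this length. The runs were 30 to 75 units in basement membrane members, 32 to 113 in FACIT members, 40 to 56 in transmembrane members and 23 to 87 in the beaded filament and network members. In Col4a1 the repeat was long but broken, with 22 runs of at least 6 units that together covered 79.6% of its 1669 codons. In Col12a1, whose 3065 codons code mostly for other domains, such runs covered 8.2%.

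Levels per length were computed from CPM, the counts of a gene relative to the TMM-scaled library size, divided by the kilobases of merged exon (FPKM here). Col3a1, the type III chain of soft connective tissue, had the highest level of all members in WT, 150.7 ± 12.1 FPKM (SD, n = 3), against 137.7 ± 14.0 in Dlx2OE. The type I chains Col1a2 and Col1a1 followed with 84.5 ± 11.7 and 80.9 ± 22.2 FPKM in WT, and these levels did not differ from each other beyond their spread. That order depends on the length used, since per kilobase of the longest coding transcript Col1a2 was at 196.5 ± 27.1 and Col1a1 at 89.6 ± 24.6. Next came Col4a1 at 64.5 ± 6.62 FPKM, Col4a2 at 42.8 ± 4.37, Col5a2 at 41.6 ± 4.70, Col18a1 at 40.5 ± 0.725, Col5a1 at 37.9 ± 6.51 and Col6a1 at 35.7 ± 9.16, of which those after Col4a1 lay within each other's spread. Per kilobase of merged exon, the highest member was Col12a1 among the FACIT collagens, at 13.1 ± 4.12 FPKM in WT, and Col23a1 among the transmembrane collagens, at 17.4 ± 0.165. Per kilobase of the longest coding transcript, Col25a1 (17.9 ± 4.33) and Col23a1 (17.6 ± 0.167) lay within their spread, and Col26a1 (89.2 ± 7.02) was above Col6a1 (38.2 ± 9.79) in the beaded filament and network class. At the other end, Col4a3 and Col6a5 were close to the floor of 3 counts in most samples, with 1 to 7 and 2 to 19 counts per library, and neither was tested.

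**Figure D1:**
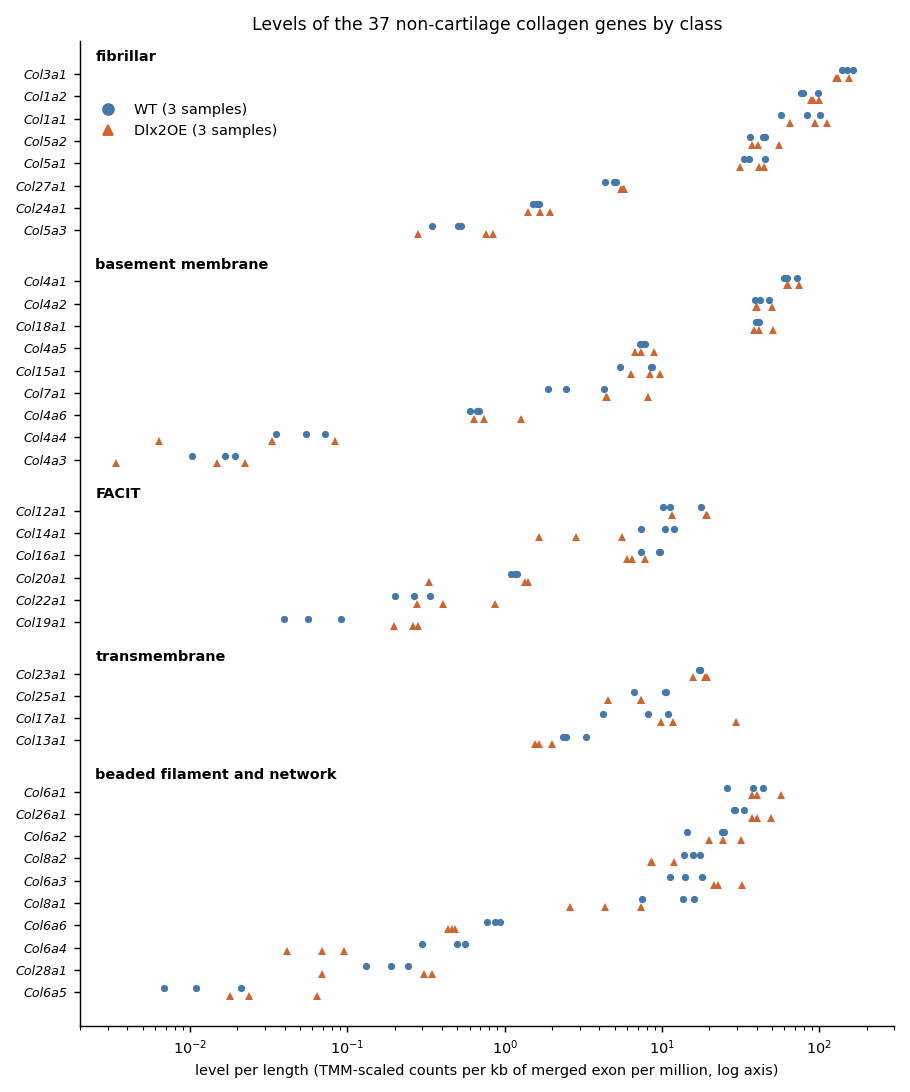
Level per length of each of the 37 members in every sample, on a log axis, in TMM-scaled CPM per kilobase of merged exon (FPKM). Circles are the 3 WT samples and triangles the 3 Dlx2OE samples, and members are ordered within their class by the WT mean. Col3a1, Col1a2 and Col1a1 are the highest, and for most members the genotypes overlap.

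Summed over the 37 members, the level per length was 693.0, 785.7 and 832.5 FPKM in the WT samples, in order of their number, and 891.7, 713.1 and 837.1 in the Dlx2OE samples. The genotypes overlapped in this sum. Fibrillar members made up 52.3% of it in WT and 50.8% in Dlx2OE on average, basement membrane members 21.7% in both, beaded filament and network members 16.9% and 18.8%, transmembrane members 4.83% and 5.27%, and FACIT members 4.30% and 3.47%. The FACIT share was 3.79%, 4.41% and 4.71% in WT and 3.75%, 2.97% and 3.68% in Dlx2OE, so that it was below every WT sample in each Dlx2OE sample, by a narrow margin in Dlx2OE sample 1. These shares are descriptions without a test.

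Total counts on genes ranged from 30332754 to 31308813 in WT and from 26155500 to 30570784 in Dlx2OE. Dlx2 itself was at 42.9, 35.0 and 45.2 CPM in WT and 118.8, 130.6 and 123.2 in Dlx2OE, a log2 fold change of 1.60 (SE 0.118, Benjamini-Hochberg adjusted p = 0.00241 from the quasi-likelihood test of edgeR), and every library matched its label. Dlx2OE sample 3 stood apart in that 14.7% of its counted reads lay outside annotated genes, against 5.03% to 7.81% in the other libraries. It also had the highest sum of 9 neuron markers, 1711 CPM, against 216.4 in the lowest Dlx2OE sample and 109.9 to 398.9 in WT. Reads of Xist and of Y-linked genes were present together in every library, but in unequal amounts. Xist was at 10.2 CPM in WT sample 2 and at 1070 to 2356 CPM in the other libraries. The Y-linked Ddx3y was at 81.1 CPM in WT sample 2 and at 16.1 to 62.0 CPM in the others. Sex was not a term in the test. The 9 facial mesenchyme markers were all measured and summed to 1572 to 1852 CPM in WT and 1957 to 2393 in Dlx2OE. They did not move together, with 7 log2 fold changes above 0 and 2 below. Six2 was lower (-1.085, adjusted p = 0.00802 by edgeR), and Twist1 (0.65, 0.0402) and Alx4 (1.39, 0.0211) were higher. The sums of the other lists overlapped between genotypes except for 6 macrophage markers (56.2 to 61.4 CPM in WT, 28.8 to 41.0 in Dlx2OE) and 7 erythroid markers (2795 to 3549 and 1655 to 2283). Those overlapping lists were 8 endothelium, 8 pericyte and smooth muscle, 7 Schwann precursor and glia, 7 skeletal muscle, 6 chondrocyte and 7 osteoblast markers, of which Tagln, Foxd3, Matn1, Bglap and Dmp1 had too few counts to test, and 10 epithelium markers described with Col17a1. Exons of other genes overlap 67.9% of the exon bases of Tagln, and reads there could have been assigned to neither gene, so its counts do not show its level. In bulk RNA, fewer cells of a type and less RNA per cell cannot be told apart.

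Of the 37 members, 35 passed the filter on low counts. Col19a1 was higher in Dlx2OE at an adjusted p under 0.05, and Col6a4, Col6a6 and Col8a2 were lower. Over all 17514 genes tested, the share higher was 2.99% and the share lower 3.46%, so that 1 and 3 of 35 members are near the background. With a log2 fold change beyond 1 added to the edgeR call, Col19a1 and Col6a4 remained, and the shares over all genes were 1.5% and 1.62%. For the members the median log2 fold change was 0.10, beside 0.00 for all genes tested, with 24 members above 0 and 11 below. All Dlx2OE samples lay above all WT samples in 5 members and below them in 6, against 16.7% and 17.3% of all genes. An unadjusted p under 0.05 was reached by 13 members, 6 of them higher and 7 lower, where the shares over all genes were 14.1% and 15.4%. None of the fibrillar, basement membrane or transmembrane members passed in edgeR, and 1, 1 and 2 of them had an unadjusted p under 0.05. In DESeq2's Wald test, 9 members passed, which were the same 4 with Col7a1, Col26a1 and Col6a3 higher and Col13a1 and Col14a1 lower. DESeq2 also made more calls over all genes, with 6% higher and 7.82% lower. The count in edgeR depended on the samples, as did the calls over all genes (524 higher and 606 lower with all 6 samples). Without WT sample 2, 0 members passed, and 39 genes were higher and 40 lower. Col6a4 alone passed without WT sample 1 (77 and 103 of all genes) or without Dlx2OE sample 2 (141 and 72). Col6a4 and Col8a2 passed without Dlx2OE sample 3 (173 and 142). Without WT sample 3, 4 members passed and calls over all genes rose to 793 and 1298. Without Dlx2OE sample 1, 5 members passed and these calls rose to 975 and 969.

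**Figure D2:**
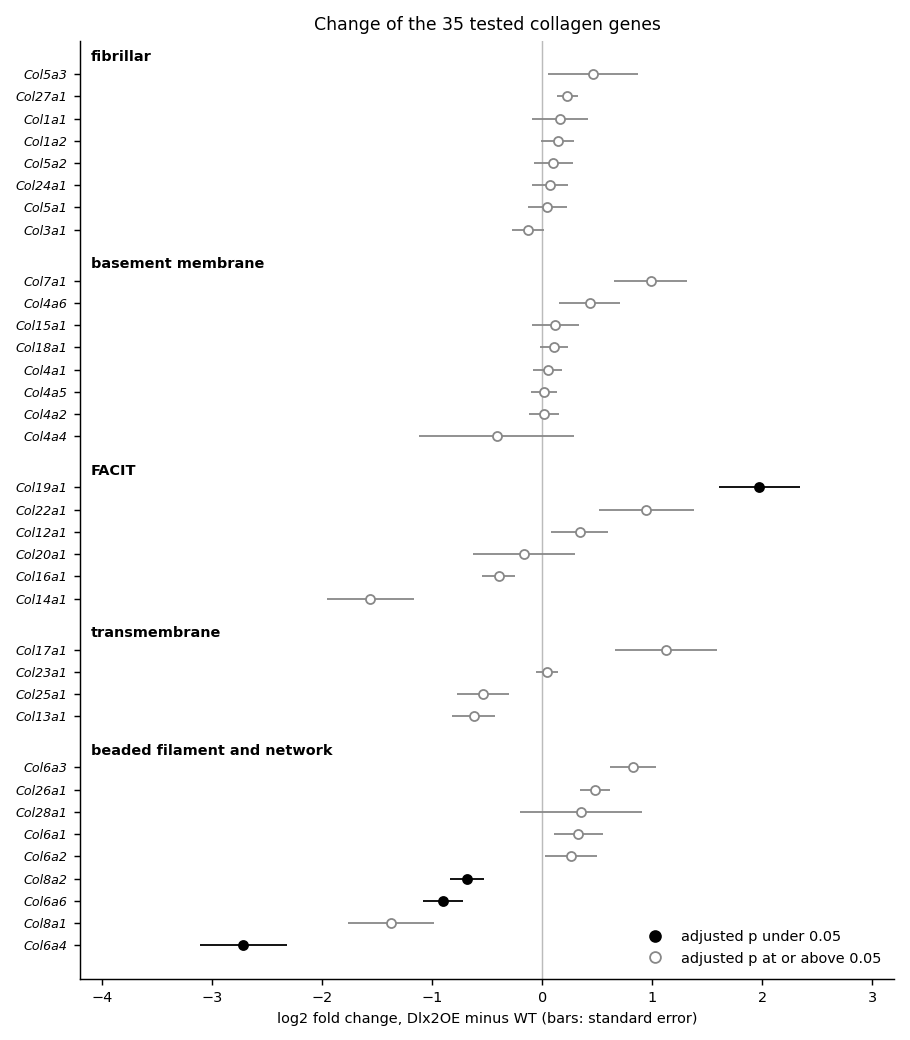
Log2 fold change (Dlx2OE minus WT) of the 35 tested members by class, from the edgeR fit over all genes, with bars for the standard error. Filled points passed an adjusted p of 0.05. The fibrillar members and Col4a1, Col4a2 and Col4a5 lie near 0, whereas the FACIT class and the beaded filament and network class spread to both sides, from 1.97 for Col19a1 to -2.72 for Col6a4.

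The fibrillar class showed little difference between genotypes. Its 8 members had a median log2 fold change of 0.12 and a range of -0.13 to 0.46, with adjusted p from 0.163 to 0.868. A correction for length and GC content moved the median to -0.11, so no direction is given for the class. Col3a1 was at 1462, 1605 and 1369 CPM in WT and 1509, 1257 and 1289 in Dlx2OE. Its genotypes overlapped, with a log2 fold change of -0.13 (SE 0.148, adjusted p = 0.582).

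The 2 chains of type I collagen, which assemble into the main fibril of bone and skin, overlapped between genotypes. Col1a2 ranged from 951.5 to 1217 CPM in WT and from 1107 to 1244 in Dlx2OE (log2 fold change 0.14). Col1a1 ranged from 376.1 to 665.7 CPM in WT and from 429.7 to 737.2 in Dlx2OE (log2 fold change 0.16, SE 0.255). Type V collagen, which helps to set the diameter of fibrils, gave log2 fold changes of 0.05 for Col5a1 (SE 0.175) and 0.10 for Col5a2 (SE 0.174). Col1a1, Col1a2, Col5a1 and Col5a2 did not pass the test, at adjusted p of 0.553 to 0.868.

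The fibrillar members with the smallest p were Col27a1 and Col5a3. Col27a1, a fibrillar collagen best known from cartilage and other developing skeletal tissue, was at 64.5, 56.2 and 66.8 CPM in WT and 71.6, 74.3 and 73.6 in Dlx2OE. All Dlx2OE samples were above the WT samples, with a log2 fold change of 0.23 (SE 0.0965, adjusted p = 0.163) that did not pass and that became -0.13 after the length and GC correction. Col5a3, a chain of type V collagen at low level here, was at 3.42, 2.36 and 3.59 CPM in WT and 1.92, 5.76 and 5.21 in Dlx2OE. Dlx2OE sample 1 was below all WT samples and the other Dlx2OE samples were above them (0.46, SE 0.405, adjusted p = 0.470).

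In the basement membrane class, 0 of 8 tested members passed. The median log2 fold change was 0.08, which became -0.11 with the length and GC correction. Col4a1 and Col4a2 together form the common type IV network. Col4a1, the member of the class with the highest level, was at 462.4, 444.6 and 537.6 CPM in WT and 469.1, 468.4 and 556.2 in Dlx2OE. Col4a2 was at 277.6, 257.5 and 314.5 CPM in WT and 267.0, 261.2 and 330.9 in Dlx2OE. In both genes sample 3 was the highest in each genotype and the genotypes overlapped, with log2 fold changes of 0.05 (SE 0.132, adjusted p = 0.824) and 0.02 (SE 0.134, adjusted p = 0.946). The 8 endothelium markers, from a cell type rich in type IV collagen, summed to 306.1 to 436.0 CPM in WT and 222.0 to 328.0 in Dlx2OE, and 8 of 8 had a negative log2 fold change. The part of that difference in the collagen values was not tested.

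The other type IV chains were much lower. Col4a5 on the X chromosome was at 50.9, 52.7 and 48.5 CPM in WT and 59.4, 45.4 and 49.1 in Dlx2OE (log2 fold change 0.02, SE 0.118, adjusted p = 0.936). Its neighbor Col4a6 was at 5.50, 5.34 and 4.81 CPM in WT and 10.1, 5.10 and 5.87 in Dlx2OE (0.43, SE 0.279, adjusted p = 0.331). Dlx2OE sample 1 was the highest for both. Col4a4, a chain of the kidney glomerular network, was at 0.376, 0.763 and 0.577 CPM in WT and 0.0675, 0.350 and 0.886 in Dlx2OE, and these overlapped (-0.41, SE 0.706, adjusted p = 0.720). For its partner Col4a3 the counts were 3, 5 and 6 in WT against 1, 7 and 4 in Dlx2OE.

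Col7a1 and Col17a1 are both made by basal epithelial cells, where Col17a1 is a transmembrane part of the hemidesmosome and Col7a1 forms the anchoring fibrils below it. Col7a1 was at 19.5, 43.7 and 25.2 CPM in WT and 83.3, 45.5 and 46.2 in Dlx2OE. The genotypes did not overlap, though WT sample 2 came close to Dlx2OE samples 2 and 3, and the log2 fold change of 0.98 (SE 0.336) had an adjusted p of 0.105. Col17a1 was at 25.4, 65.9 and 48.6 CPM in WT and 176.3, 58.8 and 70.2 in Dlx2OE. Here the genotypes overlapped, Dlx2OE sample 1 stood far above the rest, and the log2 fold change of 1.13 (SE 0.464, adjusted p = 0.153) fell to 0.46 without that sample.

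The 10 epithelium markers summed to 768.3, 1391 and 1026 CPM in WT and 1884, 591.1 and 604.8 in Dlx2OE. Dlx2OE sample 1 had the highest sum, and the other Dlx2OE samples had sums below all WT samples while their Col7a1 was above all WT samples. WT sample 2 was the highest WT sample for the marker sum, for Col7a1 and for Col17a1. Within the list, the basal keratin Krt5 was at 42.7, 91.7 and 79.5 CPM in WT and 537.6, 120.5 and 147.2 in Dlx2OE. All its Dlx2OE samples were above the WT samples, but it did not pass (log2 fold change 1.91, SE 0.572, adjusted p = 0.0793 by edgeR). Krt14, Krt15 and Trp63 of the same list overlapped between genotypes, with log2 fold changes of 0.34, 0.46 and 0.13. Krt14 was at 129.2, 253.7 and 182.3 CPM in WT and 489.6, 113.4 and 112.1 in Dlx2OE, high in Dlx2OE sample 1 only. The simple-epithelium keratins Krt8 and Krt18 were lower in Dlx2OE (log2 fold change -2.11 and -1.85, adjusted p = 0.00939 and 0.0233). None of the markers was at 0, and their part in the collagen values was not tested.

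The remaining basement membrane members were Col15a1 and Col18a1, which carry chondroitin or heparan sulfate chains and release endostatin-like fragments. Col18a1 was at 278.4 to 288.2 CPM in WT and 270.1 to 355.7 in Dlx2OE (log2 fold change 0.11, SE 0.126). Col15a1 was at 34.3 to 55.0 CPM in WT and 40.6 to 61.4 in Dlx2OE (0.12, SE 0.212).

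The FACIT class held differences in both directions, of which that of Col19a1 passed. Its 6 tested members had a median log2 fold change of 0.09, with 3 above and 3 below 0. Col19a1 (ENSMUSG00000026141, chr1:24261890-24587472, reverse strand), a collagen of basement membrane zones described in developing muscle and brain, was at low counts. These were 8, 19 and 12 in the WT libraries and 57, 43 and 49 in the Dlx2OE libraries, which is 0.273, 0.631 and 0.385 CPM against 1.92, 1.37 and 1.81. Every Dlx2OE sample was above every WT sample, with a log2 fold change of 1.97 (SE 0.370, adjusted p = 0.0276 by edgeR). Its level per length remained low, 0.247 ± 0.0425 FPKM in Dlx2OE against 0.0624 ± 0.0265 in WT, and it passed the filter on low counts through the Dlx2OE samples, so that the call is not independent of the filter. Without a filter the adjusted p was 0.00683, and with 10 counts required in every sample it was not tested. The call was lost without WT sample 1 (adjusted p = 0.0899), WT sample 2 (0.0722), Dlx2OE sample 2 (0.0651) or Dlx2OE sample 3 (0.0739), at log2 fold changes of 1.73 to 2.34.

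Col14a1, a FACIT collagen of tendon and perichondrium that regulates fibril growth, had the largest difference of the class in the other direction. It was at 51.6, 83.7 and 73.2 CPM in WT and 39.0, 11.6 and 20.0 in Dlx2OE. All Dlx2OE samples were below the WT samples, and the log2 fold change was -1.56 (SE 0.397), but the adjusted p was 0.0564. It passed without Dlx2OE sample 1, the highest of the Dlx2OE samples, with a log2 fold change of -2.15 and an adjusted p of 0.00749. Col12a1, a close relative of Col14a1 found along fibrils under load, was at 155.2, 172.4 and 271.3 CPM in WT and 292.1, 176.5 and 288.8 in Dlx2OE. These overlapped (0.34, SE 0.258, adjusted p = 0.405).

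The other FACIT members gave log2 fold changes of -0.40 for Col16a1 (SE 0.148, adjusted p = 0.127), 0.95 for Col22a1 (SE 0.431, adjusted p = 0.185) and -0.16 for Col20a1 (SE 0.465, adjusted p = 0.830). Col22a1, known from the myotendinous junction, was at 1.85 to 3.09 CPM in WT and at 2.53, 3.73 and 7.98 in Dlx2OE samples 1 to 3. It was highest in Dlx2OE sample 3, the library with the highest neuron marker sum. The 7 skeletal muscle markers summed to 123.9 to 230.3 CPM in WT and 49.6 to 157.7 in Dlx2OE, and the part of either list in the Col22a1 values was not tested.

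The transmembrane class had a median log2 fold change of -0.25 over 4 members and no call. Col23a1, the highest per kilobase of merged exon, was at 98.7, 100.4 and 100.1 CPM in WT and 90.2, 110.8 and 107.0 in Dlx2OE. The WT samples were nearly equal and lay inside the Dlx2OE range (log2 fold change 0.04, SE 0.103, adjusted p = 0.806). Col13a1, found at cell adhesions and at the neuromuscular junction, was at 15.0, 11.2 and 10.7 CPM in WT and 7.59, 9.24 and 7.20 in Dlx2OE. All Dlx2OE samples were below the WT samples, at a log2 fold change of -0.62 (SE 0.196) that did not pass (adjusted p = 0.0879). Col25a1, a collagen required for motor innervation of muscle, was at 135.6, 86.5 and 138.0 CPM in WT and 58.7, 94.7 and 94.6 in Dlx2OE, where WT sample 2 lay within the Dlx2OE range (-0.54, SE 0.234, adjusted p = 0.169).

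The beaded filament and network class held 3 of the 4 calls, all lower in Dlx2OE, where 3.46% of all genes tested were lower. Whether the class differs from that share was not tested. Its 9 tested members nevertheless had a median log2 fold change of 0.26, with 5 above 0 and 4 below. Those above 0 were Col6a1, Col6a2, Col6a3, Col26a1 and Col28a1. Col6a4, Col6a5 and Col6a6 are long type VI chains that can take the place of Col6a3, and they lie next to each other on the reverse strand of chromosome 9, with 27917 and 28810 bp between neighbors.

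Col6a4 (ENSMUSG00000032572, chr9:105989454-106096783) was counted 74, 144 and 132 times in WT against 24, 11 and 16 times in Dlx2OE, or 2.53, 4.78 and 4.23 CPM against 0.810, 0.350 and 0.591. The highest Dlx2OE sample was below the lowest WT sample. The log2 fold change was -2.72 (SE 0.393, adjusted p = 0.0136 by edgeR), the largest of all members tested. It passed in 5 of 6 fits that left out a sample and was lost without WT sample 2 (log2 fold change -2.54, adjusted p = 0.0735). Exons of the predicted genes Gm36993 and Gm47575 overlap 3.39% of its exon bases, and reads there could have been assigned to neither gene.

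Col6a6 (ENSMUSG00000043719, chr9:105687809-105828160) was at 7.11, 7.93 and 8.60 CPM in WT and 4.22, 4.01 and 4.43 in Dlx2OE. Both genotypes were tight and well apart, and the log2 fold change was -0.90 (SE 0.181, adjusted p = 0.0327 by edgeR). The call was lost without WT sample 1 (adjusted p = 0.0775), WT sample 2 (0.127), Dlx2OE sample 2 (0.114) or Dlx2OE sample 3 (0.0840), while the log2 fold change stayed between -0.98 and -0.84. Col6a5, between them, was counted 3, 6 and 2 times in WT against 5, 19 and 6 times in Dlx2OE and was not tested.

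Of the common type VI chains, Col6a1 and Col6a2 differed less, whereas Col6a3 differed about as much as Col6a6, in the other direction. Col6a1 was at 112.6, 191.2 and 165.8 CPM in WT and 249.9, 164.4 and 175.5 in Dlx2OE (log2 fold change 0.33, SE 0.225, adjusted p = 0.355). Col6a2 was at 119.9, 206.4 and 201.3 CPM in WT and 262.9, 166.6 and 203.2 in Dlx2OE (0.26, SE 0.237, adjusted p = 0.483). Both were lowest in WT sample 1 and highest in Dlx2OE sample 1, with overlap between genotypes. Col6a3, the long chain that completes the type VI molecule, was at 134.9, 166.5 and 214.0 CPM in WT and 385.4, 256.8 and 271.4 in Dlx2OE. All its Dlx2OE samples were above the WT samples, with a log2 fold change of 0.83 (SE 0.211) and an adjusted p of 0.0567. It passed without WT sample 3 (log2 fold change 1.01, adjusted p = 0.0332).

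Col8a2 and Col8a1 are the short chains of type VIII collagen, which forms hexagonal lattices in the cornea and around vessels. Col8a2 (ENSMUSG00000056174, chr4:126286793-126314330, forward strand) was at 61.8, 70.4 and 78.2 CPM in WT and 38.5, 39.0 and 53.4 in Dlx2OE. All Dlx2OE samples were below the WT samples, at a log2 fold change of -0.69 (SE 0.154, adjusted p = 0.0422 by edgeR). This call held in 1 of 6 fits that left out a sample, the one without Dlx2OE sample 3 (adjusted p = 0.0299), and the adjusted p was 0.0807, 0.149 and 0.0621 without WT samples 1 to 3 and 0.0532 and 0.133 without Dlx2OE samples 1 and 2. Col8a1 was at 58.4, 106.5 and 125.2 CPM in WT and 57.6, 20.5 and 33.8 in Dlx2OE. The highest Dlx2OE sample lay just under the lowest WT sample, and the log2 fold change of -1.37 (SE 0.392) had an adjusted p of 0.0715. It passed without Dlx2OE sample 1 (log2 fold change -1.84, adjusted p = 0.0190).

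Outside types VI and VIII, Col26a1, a short collagen first described in testis and ovary, was at 235.6, 238.0 and 270.6 CPM in WT and 404.6, 328.8 and 305.0 in Dlx2OE. The genotypes did not overlap, at a log2 fold change of 0.48 (SE 0.135, adjusted p = 0.0688). Col28a1 ranged from 0.641 to 1.20 CPM in WT and from 0.338 to 1.70 in Dlx2OE (0.35, SE 0.552, adjusted p = 0.692).

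**Figure D3:**
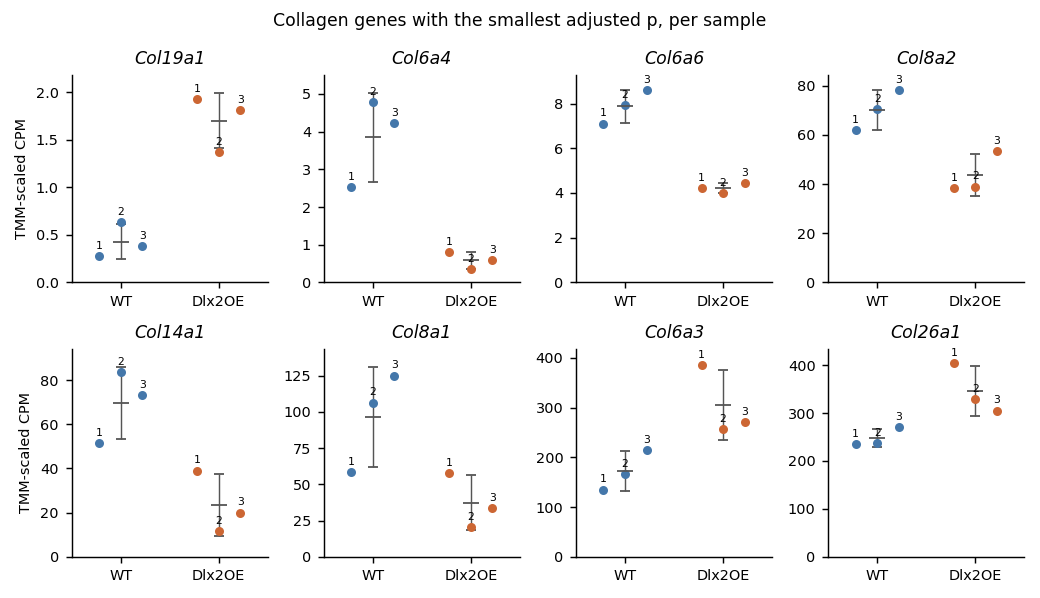
TMM-scaled CPM of the 8 members with the smallest adjusted p in each sample, on axes that start at 0. Dots carry the sample number, and the horizontal mark and bar give the mean and SD of 3 samples. In the upper row, the 4 members that passed the test, the genotypes are apart, and in the lower row they are apart but Dlx2OE sample 1 or WT sample 1 lies close to the other genotype in Col14a1 and Col8a1.

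Chains of one protein were then compared within each sample as ratios of levels per length. Col4a1 and Col4a2 lie head to head on chromosome 8 and overlap by 22 bp at their starts. Their ratio was 1.48, 1.53 and 1.52 in WT and 1.56, 1.59 and 1.49 in Dlx2OE, the narrowest of the 7 ratios. Col6a1 and Col6a2, which lie 85161 bp apart on chromosome 10, had a ratio of 1.57 to 1.88 over the 6 samples.

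The ratio of Col6a3 to Col6a1 was 0.439, 0.319 and 0.473 in WT and 0.565, 0.572 and 0.566 in Dlx2OE. Every Dlx2OE sample was above every WT sample, and the Dlx2OE mean was 1.38 times the WT mean. The ratio of Col4a5 to Col4a6, neighbors 1308 bp apart on the X chromosome, was 11.0, 11.7 and 12.0 in WT and 6.96, 10.6 and 9.93 in Dlx2OE, lower in every Dlx2OE sample. The height of each ratio depends on the exon lengths used, whereas its comparison between samples does not. The ratios of Col1a1 to Col1a2 (0.723 to 1.12), Col5a1 to Col5a2 (0.747 to 1.25) and Col8a1 to Col8a2 (0.301 to 0.917) overlapped between genotypes. The ratios were chosen with results of these data known and were not tested.

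**Figure D4:**
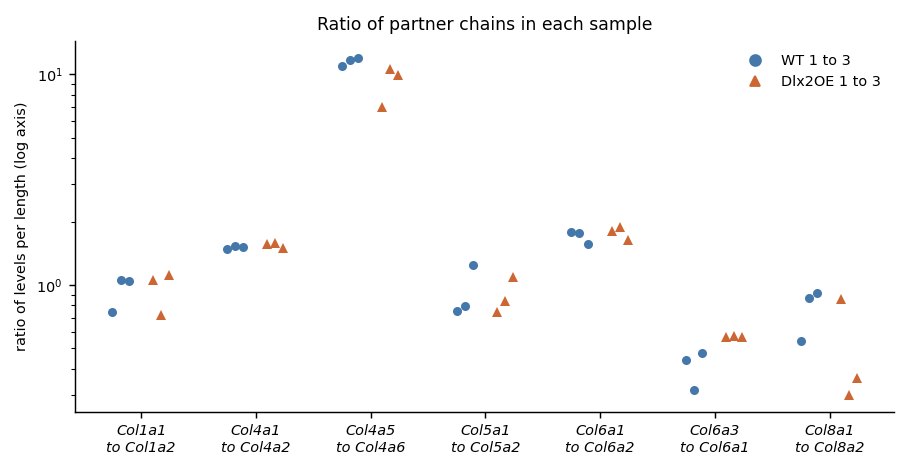
Ratio of the levels per length of partner chains in each sample, on a log axis, with circles for WT samples 1 to 3 and triangles for Dlx2OE samples 1 to 3. Col4a1 to Col4a2 stayed between 1.48 and 1.59 in all 6 samples, while Col6a3 to Col6a1 was higher in every Dlx2OE sample (0.565 to 0.572) than in WT (0.319 to 0.473).

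The sequence before the start was examined for the members that passed. The 250 bases upstream of the RefSeq start are shown for Col19a1 and Col6a4, the members that passed with the highest and the lowest log2 fold change, with each CG dinucleotide in capitals. They are from build GRCm38.p6, read 5′ to 3′ on the reverse strand, at chr1:24587438-24587687 for Col19a1 and chr9:106096692-106096941 for Col6a4. The GENCODE genes begin at 24587472 and 106096783, so the last bases of both windows lie inside the GENCODE gene. The same holds for the window of Col6a6.
Col19a1: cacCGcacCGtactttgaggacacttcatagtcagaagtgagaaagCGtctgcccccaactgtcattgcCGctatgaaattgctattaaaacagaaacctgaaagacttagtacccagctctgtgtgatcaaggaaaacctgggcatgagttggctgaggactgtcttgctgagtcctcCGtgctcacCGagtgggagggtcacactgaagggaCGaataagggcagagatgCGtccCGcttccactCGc
Col6a4: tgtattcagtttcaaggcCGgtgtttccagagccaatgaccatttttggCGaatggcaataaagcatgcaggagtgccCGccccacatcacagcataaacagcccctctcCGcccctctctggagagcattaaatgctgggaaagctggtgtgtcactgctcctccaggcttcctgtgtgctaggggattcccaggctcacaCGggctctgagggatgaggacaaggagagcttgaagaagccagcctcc
Col6a4 held 5 CG dinucleotides and 55.2% G and C in this window, and Col19a1 held 10 and 52.0%. Col6a6 held 10 and 62.4%, and Col8a2 held 24 and 70.0%. Over all 32851 RefSeq windows of this length the median was 6 CG dinucleotides, with quartiles of 2 and 16, and 92.1% held at least 1. The motif TAATT, a core bound by many homeodomain proteins, was searched on both strands and was found in none of these 4 windows. It was found in 2 of 32 windows of 30 members (Col17a1 and Col28a1) and in 25.0% of all windows. The longer TAATTA, which contains TAATT, was in 0 of those 32 and in 4.8% of all windows. A match or its absence describes these letters in this window.

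Genes that modify, carry, process and bind collagens were taken from lists of 83 genes, of which 81 were tested. Their median log2 fold change was -0.14, against 0.00 for all genes, with 31 above and 50 below 0. At an adjusted p under 0.05, 3 were higher and 9 lower, where 2.99% and 3.46% of all genes were, so that the number higher is near the background. Among the hydroxylases and other enzymes that modify the new chain, 4 of 15 were lower.

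The lowered enzymes act at different positions of the chain. Plod2, which hydroxylates lysines of the telopeptides, fell from 142.2 ± 12.0 to 86.9 ± 6.02 CPM (SD, n = 3; log2 fold change -0.71, adjusted p = 0.0140 by edgeR). P3h4, a partner of the prolyl 3-hydroxylase complex needed for lysyl hydroxylation, fell from 59.9 ± 2.33 to 37.9 ± 1.80 CPM (-0.66, adjusted p = 0.0116). P4ha3, a catalytic subunit of prolyl 4-hydroxylase, fell from 42.2 ± 4.45 to 26.6 ± 2.62 CPM (-0.66, adjusted p = 0.0267). Ppib, a prolyl isomerase of the endoplasmic reticulum, fell from 131.6 ± 32.7 to 70.8 ± 1.06 CPM (-0.89, adjusted p = 0.0318). Exons of other genes overlap 25% of its exon bases, and reads there could have been assigned to neither gene.

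Among chaperones and secretion genes, 2 of 12 were lower. These were Fkbp7 (log2 fold change -0.90, adjusted p = 0.0163) and Fkbp10 (-0.56, adjusted p = 0.0327), both prolyl isomerases of the endoplasmic reticulum. Loxl1, a cross-linking enzyme better known for elastin, was the 1 of 5 lysyl oxidases that passed (-1.12, adjusted p = 0.0221). Tll1, a protease that removes procollagen C-propeptides, was higher in Dlx2OE, at 3.18, 5.21 and 6.22 CPM in WT and 25.4, 12.1 and 10.9 in Dlx2OE (1.73, adjusted p = 0.0402), and was the 1 of 8 tested processing genes that passed.

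Among 14 fibril-associated proteins, 2 were lower. Postn, coding for periostin, which binds type I collagen and BMP1, fell from 931.4 ± 238.3 to 363.0 ± 7.52 CPM (-1.36, adjusted p = 0.0116). Ogn, a small leucine-rich proteoglycan, fell from 162.0 ± 21.3 to 75.2 ± 24.0 CPM (-1.11, adjusted p = 0.0309). Of 14 basement membrane partners, the laminin chains Lama1 (0.99, adjusted p = 0.0165) and Lama2 (0.77, adjusted p = 0.0134) were higher. None of 12 collagen receptors passed in edgeR, where 3 had an unadjusted p under 0.05, 2 higher and 1 lower, against 14.1% and 15.4% of all genes. Ddr2, Itgb1 and Mrc2 passed in DESeq2, which called 6% of all genes higher and 7.82% lower. The smallest adjusted p in edgeR was 0.0687 for Mrc2, an endocytic collagen receptor (0.38). Pxdn, which cross-links type IV collagen, did not pass (0.13, adjusted p = 0.544). With the length and GC correction, Tll1 (adjusted p = 0.0574), Lama2 (0.0585), Fkbp10 (0.0620) and Ogn (0.0692) no longer passed. The counts of pathway genes rested on the set of samples, as did the calls over all genes (524 higher and 606 lower with all 6 samples). The fit without WT sample 2 left 0 higher and 1 lower, beside 39 and 40 of all genes. Without Dlx2OE sample 2 it left 0 and 1, beside 141 and 72. Without WT sample 1 it left 0 and 2, beside 77 and 103. Without Dlx2OE sample 3 it left 4 lower, beside 142 lower of all genes. Calls over all genes rose without WT sample 3 or without Dlx2OE sample 1.

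**Figure D5:**
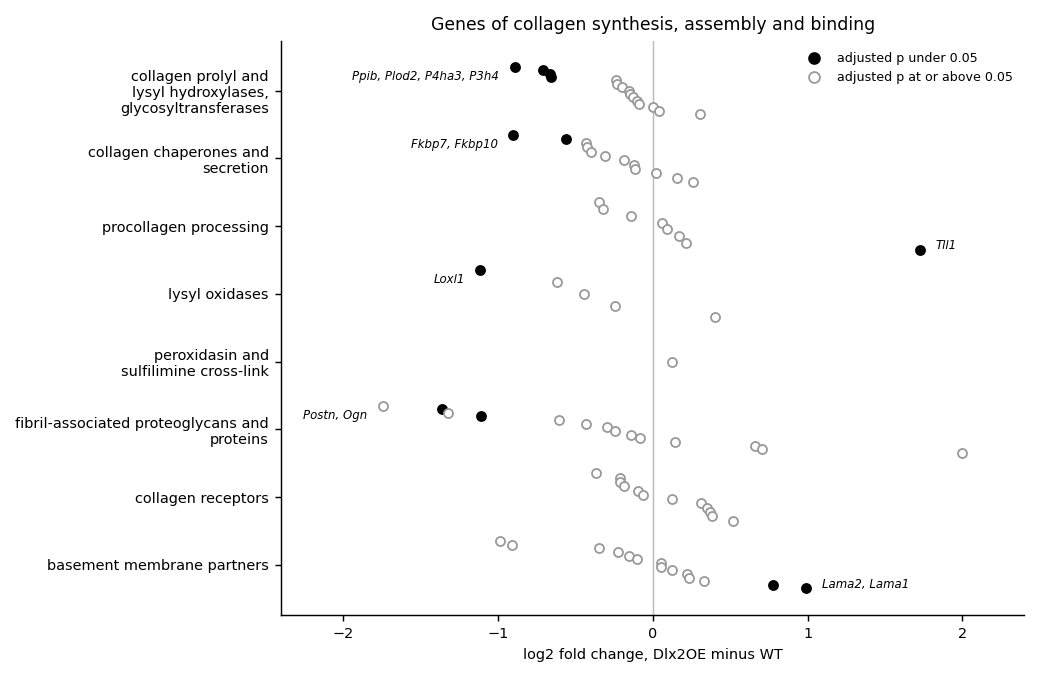
Log2 fold change (Dlx2OE minus WT) of the 81 tested genes that act on or bind collagens, by list. Filled points passed an adjusted p of 0.05 and are named. The enzymes, chaperones, lysyl oxidases and fibril-associated genes that passed lie below 0, and Tll1, Lama1 and Lama2 lie above 0.

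Of the 7 cartilage collagens left out of the members, 6 were tested and had negative log2 fold changes from -1.37 to -0.20. Of these 6, 2 were lower at an adjusted p under 0.05 (Col9a2 and Col9a3). Over all genes, 8707 of 17514 had a negative log2 fold change and 3.46% were lower at that threshold. The median of the tested cartilage collagens was -0.72, against 0.10 for the members. The difference between these medians was not tested. The 6 chondrocyte markers, which include Col2a1 and Col9a1, summed to 543.8 to 791.9 CPM in WT and 269.9 to 640.7 in Dlx2OE.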

How the data were processed

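Counts of reads per gene were deposited by the authors without normalization, after trimming, mapping to mm10 with STAR 2.7.3a and counting with HTSeq 0.12.4 in union mode (versions from the submitters' processing notes). The annotation release and strand setting are not given in the sources used here, and the library kit does not mark strand. Of 53801 identifiers, 53706 matched GENCODE M21 (GRCm38), the source of symbols and lengths.

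Genotypes were compared on these counts by edgeR 4.0.16, run in R 4.3.3 (filterByExpr with a minimum count of 10, TMM factors, quasi-likelihood F test on genotype, Benjamini-Hochberg adjustment over 17514 genes) and, as an alternative, with DESeq2 1.42.0. The floor of 3 counts was 0.0955 to 0.111 CPM and covers counting error only. Scripts were tested on simulated data.

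The members and gene lists were chosen with earlier results of these data known. Full values were given for members that passed and, in each class, for the highest level per length and the 2 smallest p. Partner chains were added, and pathway genes were named if they passed, up to 5 in a list. Other alternatives changed the normalization, filter, replicate block, length and GC content (loess, span 0.5), composition, samples and exon length. Figures were drawn with matplotlib 3.10.9.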

Additional observations from a re-analysis of the deposited data

How the results depend on the processing

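Counts of collagens passing the test depended on the tool and the samples. The reported counts were 1 higher and 3 lower, and 1 and 1 with the fold threshold. DESeq2 gave 4 higher and 5 lower (2 lower with the fold threshold) and 5 higher and 14 lower pathway genes. Without a filter there were 3 higher and 5 lower (3 lower with the fold threshold), and with 10 counts in every sample 0 higher by both rules and a FACIT median of -0.16. Without the fold threshold, the count of lower members was 3. With the length and GC correction 5 members passed, the same 4 and Col16a1, beside 462 genes higher and 406 lower among all genes. The correction gave 2 lower members with the fold threshold, 1 higher pathway gene, and medians of -0.11 for fibrillar (-0.1123) and basement membrane (-0.1069) members. It reversed members that had not passed: Col27a1 (-0.13), Col4a1 (-0.15), Col23a1 (-0.0657), Col1a1 (-0.0051), Col1a2 (-0.16), Col4a2 (-0.18), Col4a5 (-0.10), Col5a1 (-0.18) and Col5a2 (-0.10). Without a filter Col4a2 (-0.0092) and Col4a5 (-0.0052) reversed.

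Same-numbered samples of the genotypes did not deviate together (r = -0.0718, -0.211 and 0.0731). The largest r was 0.345, between WT sample 1 and Dlx2OE sample 2. With 3 samples per genotype, these values cannot settle whether samples share a litter or a batch. With the replicate block, 0 members were higher by both rules and 2 were lower (Col6a4 and Col8a2), as against 4 calls, Tll1 no longer passed (adjusted p = 0.0828), and 407 genes were higher and 554 lower among all genes. With the block and the length and GC correction together, 0 collagens and 0 pathway genes passed in either direction and by either rule, 25 genes were higher and 24 lower among all genes, the fibrillar, basement membrane and FACIT medians were -0.1152, -0.1115 and -0.2067, and log2 fold changes were -0.12 for Col27a1, -0.15 for Col4a1, -0.07 for Col23a1, -0.0075 for Col1a1, -0.17 for Col1a2, -0.18 for Col4a2, -0.11 for Col4a5, -0.19 for Col5a1 and -0.11 for Col5a2.

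Leaving out each sample gave 0 to 2 higher and 0 to 4 lower members, and 0 to 2 higher and 0 to 3 lower with the fold threshold. It gave 0 to 4 higher and 1 to 12 lower pathway genes. Over all genes, these fits gave 39 to 975 higher and 40 to 1298 lower. The log2 fold change then ranged from -0.0388 to 0.3526 for Col1a1, -0.1005 to 0.0874 for Col4a2, -0.0565 to 0.1853 for Col5a1, -0.0385 to 0.1243 for Col4a1, -0.1114 to 0.0960 for Col4a5, -1.4219 to 0.0833 for Col4a4, -0.0983 to 0.2140 for Col5a2 and -0.0179 to 0.1180 for Col23a1. With RLE factors, or with mitochondrially encoded and haemoglobin genes removed, the same 4 members passed, and with library size alone Col8a2 (adjusted p = 0.0693) and the pathway gene Fkbp10 (0.0616) did not. Levels per length with the longest coding transcript were 265.8 for Col3a1, 72.8 for Col4a1, 17.3 for Col12a1, 17.6 for Col23a1 and 38.2 for Col6a1 in WT, and Col25a1 (17.9) and Col26a1 (89.2) then had the highest level of their classes. The causes of these differences were not tested. Depth limits Col4a3 and Col6a5, which had too few counts to test.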
